A study of Mus musculus with 2 samples.

Results

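The genes described here are 46 genes of pre-mRNA splicing: SR proteins, the CLK kinases and their partners, nuclear speckle proteins, proteins that recognise splice sites, hnRNPs, 2 helicases and the O-GlcNAc transferase gene Ogt. They were named by symbol, and all 46 were found once each among 55536 mouse genes. RNA came from the nucleoplasm, the soluble nuclear fraction, of primary bone-marrow-derived macrophages of C57BL/6J mice, treated with lipid A, the ligand of the receptor TLR4, at 100 ng/ml for 20 min. Ribosomal RNA was depleted and total RNA was sequenced in 2 libraries, replicate 1 from 1 µg and replicate 2 from 500 ng of RNA. Both carry 1 donor identifier, and no label gives separate cultures or animals, so the spread between them may be technical. Differences between replicates and between RNA inputs cannot be told apart. With 1 group and no untreated library analysed here, levels are described and no effect of lipid A was tested.

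SR proteins carry domains rich in arginine and serine and bind exons to recruit the spliceosome, while hnRNPs often silence exons. CLK kinases phosphorylate the serine residues of SR proteins, which are stored in nuclear speckles. Many of these genes are known to control their own output through alternative splicing: an mRNA takes up a poison exon with an early stop codon or skips a coding exon and is destroyed by nonsense-mediated decay (NMD), or it keeps an intron and stays in the nucleus. Decay by this route needs translation in the cytoplasm, so nuclear RNA is where such transcripts are seen before it acts.

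The 4 CLK genes shared a layout in these data, shown first because both of their noncoding routes meet at exon 4. In each gene an expressed transcript annotated as retained intron kept introns 3 and 4 whole, on either side of exon 4. In each gene an expressed transcript annotated for NMD joined exon 3 to exon 5. Exon 4 is 91 bases long in Clk1 and Clk4, 88 in Clk2 and 97 in Clk3, and division of each length by 3 leaves 1 base, so skipping it shifts the reading frame. The sequences below run across the end of exon 4 into intron 4 in the mm10 assembly. They start with 10 bases of exon, and capitals mark the first 2 bases of the intron.
Clk1 intron 4 start (chr1:58419734-58420120, minus strand): agtgcaagatGTatagaatatttttcaaca
Clk4 intron 4 start (chr11:51273169-51273559, plus strand): agagcaagatGTatagaatatttttcaaca
Clk2 intron 4 start (chr3:89169703-89170048, plus strand): caagagcgatGTacaagccaaatcgtaaca
Clk3 intron 4 start (chr9:57758351-57758626, minus strand): caagagcgatGTacagccacctttcgtaaa
Clk1 and Clk4 had the same 20 bases at the start of intron 4. Clk2 and Clk3 shared 9 of 20 there, no more than the other pairs, which each shared 10. None of the 4 begins with a match to GTNNG, the pattern that the common intron start GTAAGT follows. Over the first 20 bases of intron 3, Clk1 and Clk4 shared 12, Clk2 and Clk3 shared 11, and the other pairs shared 4 to 6. Intron 4 was also short, at 387, 391, 346 and 276 bases in Clk1, Clk4, Clk2 and Clk3.

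The balance between the transcripts of the 2 routes differed among the kinases. TPM, a unit of transcript level per length scaled so that every library has the same total, was 57.7 in replicate 1 and 40.4 in replicate 2 for the Clk1 transcripts that keep introns 3 and 4. The Clk1 transcript that skips exon 4 had 16.6 and 12.4 TPM. Clk2 was the other way round, with 4.28 and 3.37 TPM on the retaining transcript and 12.6 and 12.1 TPM on the skipping one. Clk3 had 10.8 and 7.46 TPM with both introns kept against 2.65 and 1.38 TPM with the exon skipped. Clk4 had 13.3 and 10.2 TPM against 5.07 and 5.83 TPM. In both libraries the retaining transcripts thus had the higher level in Clk1, Clk3 and Clk4, and the skipping one in Clk2. These levels do not measure introns 3 and 4 alone. Clk1-204 also keeps intron 6 and part of intron 7. Clk4-213, the only such Clk4 transcript, also keeps introns 7 and 8 and part of intron 9. Reads from those introns, or from pre-mRNA not yet spliced, can add to their TPM. The second quantification gave the same order in Clk1, Clk2 and Clk3 but not in Clk4, where retention took 11.5% and 16.6% of its TPM and skipping 19.8% and 14.9%, so the order in Clk4 is not resolved. The skipping transcript was also the main NMD product of Clk2 and held 42.6% and 42.0% of all Clk2 TPM. The map of the 4 genes shows these transcripts to scale.

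**Figure D1:**
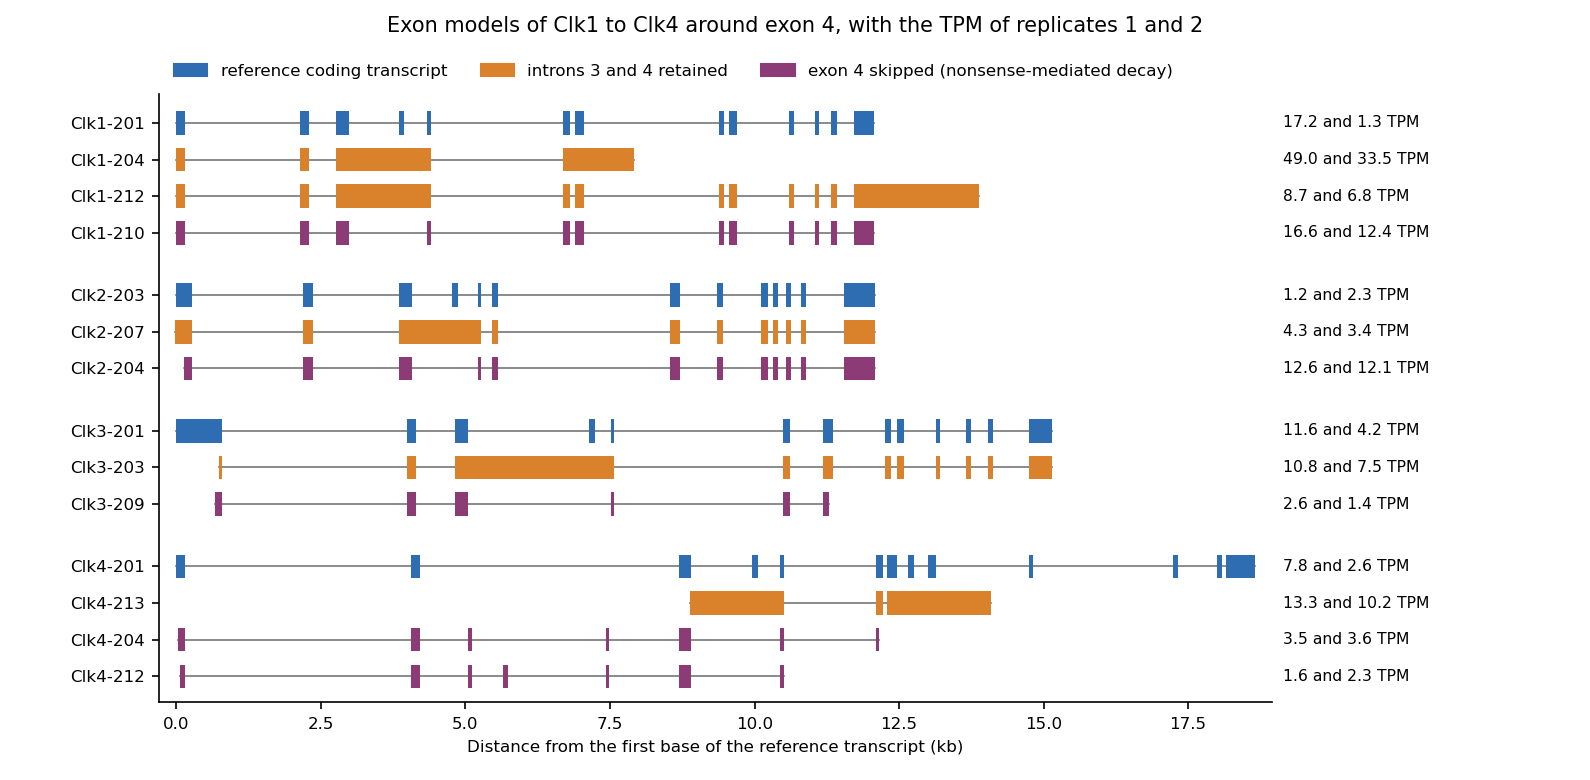
Exon models of the Clk1 to Clk4 transcripts that keep introns 3 and 4 or skip exon 4, beside a reference coding transcript; the horizontal axis is distance from the first base of the reference in kb, boxes are exons, and TPM in replicates 1 and 2 stands at the right. The wide orange boxes join exons 3, 4 and 5, and the purple models lack exon 4. The skipping transcript is above the retaining one in Clk2, at 12.6 and 12.1 TPM, and below it in Clk3 and Clk4. The second quantification does not give that order for Clk4. In Clk1 it is below Clk1-204, at 49.04 and 33.55 TPM, but above Clk1-212, at 8.66 and 6.83 TPM.

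The skipping transcripts of Clk1, Clk2 and Clk3 reach an early stop downstream of the skipped exon, printed here with 15 bases before it and the stop codon in capitals.
Clk1-210 stop: aaattgttgatacttTAGgtgaaggtgctt
Clk2-204 stop: tcttcaatgaaattgTAAgcaccttaggag
Clk3-209 stop: agtcacaggttgcccTGAagatcatccgta
The stop lies 812 bases before the last exon junction in Clk1-210, 821 in Clk2-204 and 97 in Clk3-209. In Clk4 the annotated stop of both skipping transcripts, Clk4-204 and Clk4-212, lies upstream of exon 4, so skipping that exon does not create it. An exon junction well downstream of a stop codon is the usual mark by which NMD recognises an mRNA.

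The 46 genes were abundant in the nucleoplasm. Each was at 1 TPM or more in both libraries, a level that 44.9% of nuclear-encoded protein-coding genes reached. Their median was 101 TPM in replicate 1 and 80.3 in replicate 2 (90.7 ± 14.7, SD, n = 2), against 11.2 and 8.53 among the protein-coding genes that reached 1 TPM. Together they took 1.87% and 1.54% of all gene counts. TPM is set by the other RNAs in the total, and gene levels from the second quantification of the same libraries had a median of 63.5 TPM. Rescaling the first quantification to long nuclear-encoded genes gave 294 TPM.

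Speckle proteins held the highest median of the larger role groups, at 197 and 146 TPM in replicates 1 and 2. Rsrp1, which encodes an arginine- and serine-rich protein, had the highest mean of all 46 genes in the first quantification. It was 539 ± 246 TPM (SD, n = 2), from 714 in replicate 1 and 365 in replicate 2. That range spans the values of Ddx5 and Hnrnpa2b1, so the order of the 3 highest genes is not resolved. The second quantification gave other highest genes, with means of 422 TPM for Rbm39 and 419 for Ddx5. Rsrp1 had 287 and Hnrnpa2b1 247 there. Rbm39, which encodes a U2AF-related splicing factor, had 496 and 311 TPM, and Rbm25 had 197 and 149. The speckle scaffold genes Son and Srrm2 had 197 and 144 TPM, and 292 and 178 TPM.

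Among helicase genes Ddx5, an RNA helicase that acts in splicing and transcription, had 592 and 484 TPM, and its paralog Ddx17 had 175 and 122. Median levels of hnRNP genes were 114 and 93.0 TPM, led by Hnrnpa2b1 at 636 and 369. The hnRNP with the lowest mean was Hnrnpd, an RNA-binding protein that also controls mRNA decay, at 43.8 and 38.3 TPM. Ogt, which encodes the enzyme that attaches O-linked N-acetylglucosamine to nuclear proteins, had 226 and 229 TPM. It was among the most alike between libraries in TPM only. Its scaled counts were higher in replicate 2, with a log2 ratio over replicate 1 of 0.19 (counting interval 0.16 to 0.22).

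SR protein genes had the lowest median of the larger role groups, at 70 and 49.8 TPM. Within it Srsf5 reached 422 and 212 TPM and Srsf11 234 and 199, and the SR-like gene Tra2b had 80.8 and 55.1. Srsf9, with 15.1 and 11.2 TPM, and Srsf4, with 24.0 and 15.4 TPM, were the 2 lowest of all members. U2af1, which encodes the protein that reads the AG at the end of introns, was next at 28.4 and 16.4 TPM, while its partner U2af2 had 113 and 78.9. Ranges of the 2 libraries overlapped between Srsf4 and U2af1, so their order is not resolved. Kinase and cyclin genes had a median of 83.3 and 53.2 TPM. Ccnl1, a cyclin that partners CDK11 in speckles, had 470 and 204 TPM against 87.2 and 41.0 for its paralog Ccnl2, and Clk1 at 203 and 133 TPM was above Clk4 (80.8 and 53.2), Clk3 (58.5 and 41.4) and Clk2 (29.5 and 28.7).

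**Figure D2:**
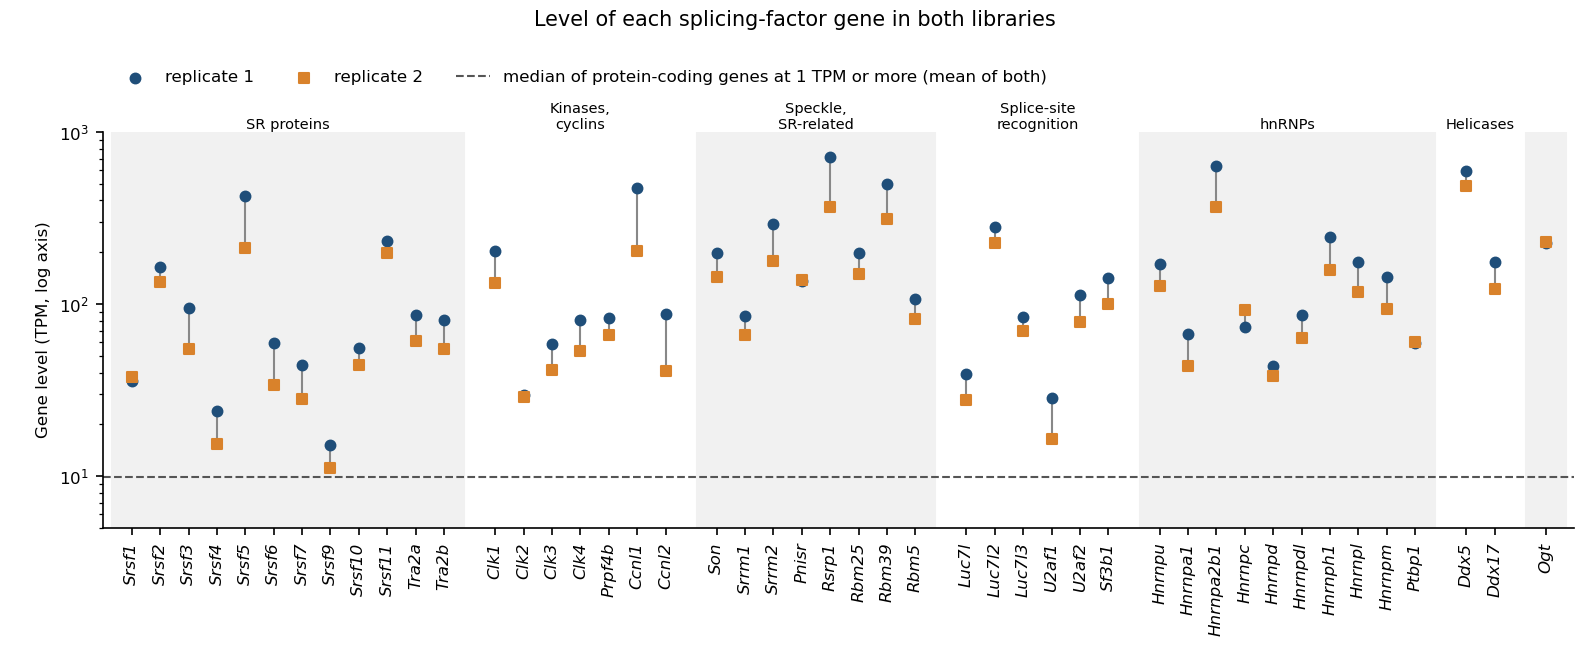
Level of each gene in TPM on a log axis, grouped by role, with a circle for replicate 1 and a square for replicate 2 joined by a line. All 46 genes lie above the dashed line, the median of protein-coding genes at 1 TPM or more. Srsf9 is the lowest at 15.1 and 11.2 TPM. Rsrp1 is the highest by its mean, at 714 and 365 TPM, which the second quantification does not give.

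Intron retention was examined as the share of each gene's TPM that fell on transcripts annotated as retained intron. Of the 46 genes 40 have such a transcript; Srsf9, Srsf10, Pnisr, Hnrnpa1, Hnrnph1 and Ddx17 have none in the GENCODE M21 annotation used here. Over the 40, the median share was 49.6% in replicate 1 and 50.4% in replicate 2 (50% ± 0.585, SD, n = 2). The same median was 32.0% and 32.9% over the 6517 genes that have one and average at least 1 TPM. The second quantification narrowed that gap, with 45.3% and 49.5% in the members against 35.5% and 37.4% over all those genes. A share of 50% or more in both libraries was seen in 19 of the 40 members, 47.5%, against 17.3% of all those genes. In nuclear RNA, reads from a stable retained-intron transcript and from pre-mRNA not yet spliced cannot be told apart. Many of these transcripts also end inside an intron: of 157 in the members, 47 hold at least 1 whole intron of the reference transcript and 105 only part of one.

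The members have more annotated transcripts of this kind, with a median of 3 per gene against 2 over all such genes. Among members with 3 or more, 17 of 26 had a share of 50% or more in both libraries (65.4%), against 30.8% of 2527 other genes with as many. Among members with 1 or 2, the counts were 1 of 6 and 1 of 8, against 6.06% and 11.6% of other genes. Other genes within the members' own range of mean TPM, 13.1 to 539, gave 31.4% for 3 or more. At a limit of 70% the count was 4 of 40 members, against 4.25% of all genes.

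Shares were highest in genes of splice-site recognition, with a role median of 58.7% and 69.9%. U2af1 had 71.4% and 80.2% on retained-intron transcripts, and U2af2, which binds the pyrimidine tract before the AG, had 63.8% and 78.8%. The U1 snRNP-associated genes Luc7l and Luc7l2 had 55.4% and 73.9%, and 62.1% and 65.8%. Their paralog Luc7l3 was the exception, at 12.6% and 8.76%. Sf3b1, which encodes the branch-site protein of the U2 snRNP, had 52.7% and 53.7%. Of these genes Sf3b1 alone has a retained-intron transcript that holds a whole intron of the reference transcript. Those of U2af1, U2af2, Luc7l and Luc7l2 hold at most part of one, so their shares do not show a whole intron kept. Of its 31-base words U2af1 shared 25.8% with other genes and U2af2 21.4%, so reads of these 2 genes may be split. The second quantification gave 55.2% and 53.1% for U2af1 and 69.1% and 83.5% for U2af2.

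Kinase and cyclin genes followed, with a median of 51.0% and 56.3%. Ccnl1 had 71.2% and 74.3%, Clk1 had 64.9% and 65.3%, Clk4 had 50% and 56.5%, and Ccnl2 had 51.0% and 56.3%. Prpf4b, which encodes a kinase of the tri-snRNP, stood apart from them at 13.2% and 17.2%. By counts, which weigh each read alike rather than each transcript, the Clk1 share was 77.9% (exact 95% interval 76.8 to 78.9) and 81.7% (80.6 to 82.7).

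SR protein genes ranged widely. Srsf11 had the highest mean share of all members in the first quantification, from 85.7% and 78.7%, although U2af1 and U2af2 were above it in replicate 2 by small margins. The second quantification gave Srsf11 72.4% and 69.1%. None of the Srsf11 retained-intron transcripts holds a whole intron of the reference transcript. Srsf3, the smallest of the classical SR proteins, had 70.5% and 77.9%. Srsf7 had 49.1% and 69.5%, the largest gap between the libraries among the 40 genes. Tra2b had 46.7% and 49.5%. Srsf1 and Srsf4 were low at 22.3% and 31.9%, and 19.0% and 13.2%. Intron 4 of Srsf1 is an intron only by the reference transcript Srsf1-202, which had 0 counts in both libraries. The coding transcripts Srsf1-201 and Srsf1-205 contain that stretch, with 41.4% and 26.3%, and 24.2% and 24.9%, of Srsf1 TPM. Its presence in them therefore does not show a retained intron. Speckle genes had a median of 50.1% and 50.4%, with Rbm5 at 68.9% and 76.3%, Rsrp1 at 63.1% and 67.8%, Rbm25, a U1-associated regulator of splice site choice, at 52.2% and 54.4%, and Srrm2 at 21.3% and 16.4%.

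In Rsrp1 a single transcript carried the share. Rsrp1-204, which keeps intron 3, had 450 and 247 TPM and 24330 and 16352 counts, and annotated coding transcripts held 2.04% and 3.71% of Rsrp1 TPM. The ends of that intron are printed because it is the most abundant whole intron in the set. Capitals mark the first 2 and the last 2 bases of the intron, with 10 bases of exon at the outer ends.
Rsrp1 intron 3 start (chr4:134925433-134926734, plus strand): aaaggtggagGTaagtgccttcaggaagct
Rsrp1 intron 3 end: aaaattctcttcctctttAGcattcagaaa
This intron is 1302 bases long and begins with GTAAGT.

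hnRNP genes divided by share, around a median of 37.3% and 39.9%. Hnrnpl, which binds CA repeats, had 61.1% and 75.8%, Ptbp1, the pyrimidine-tract repressor of exons, had 65.5% and 73.5%, and Hnrnpa2b1 had 61.1% and 69.9%. Hnrnpd was the lowest of all 40 genes at 4.71% and 3.36%. Ddx5, next lowest at 5.87% and 5.16%, kept its intron 10 in an annotated transcript, an intron of only 82 bases that is shown whole as the low end of the set.
Ddx5 intron 10 (chr11:106784019-106784100, minus strand): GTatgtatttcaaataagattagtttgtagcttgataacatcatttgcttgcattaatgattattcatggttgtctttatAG
Ogt is known for an intron that is detained in the nucleus, and its retained-intron share was 36.1% and 50.4%. The transcript Ogt-204, which holds part of intron 4, took 30% and 31.5% of Ogt TPM.

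**Figure D3:**
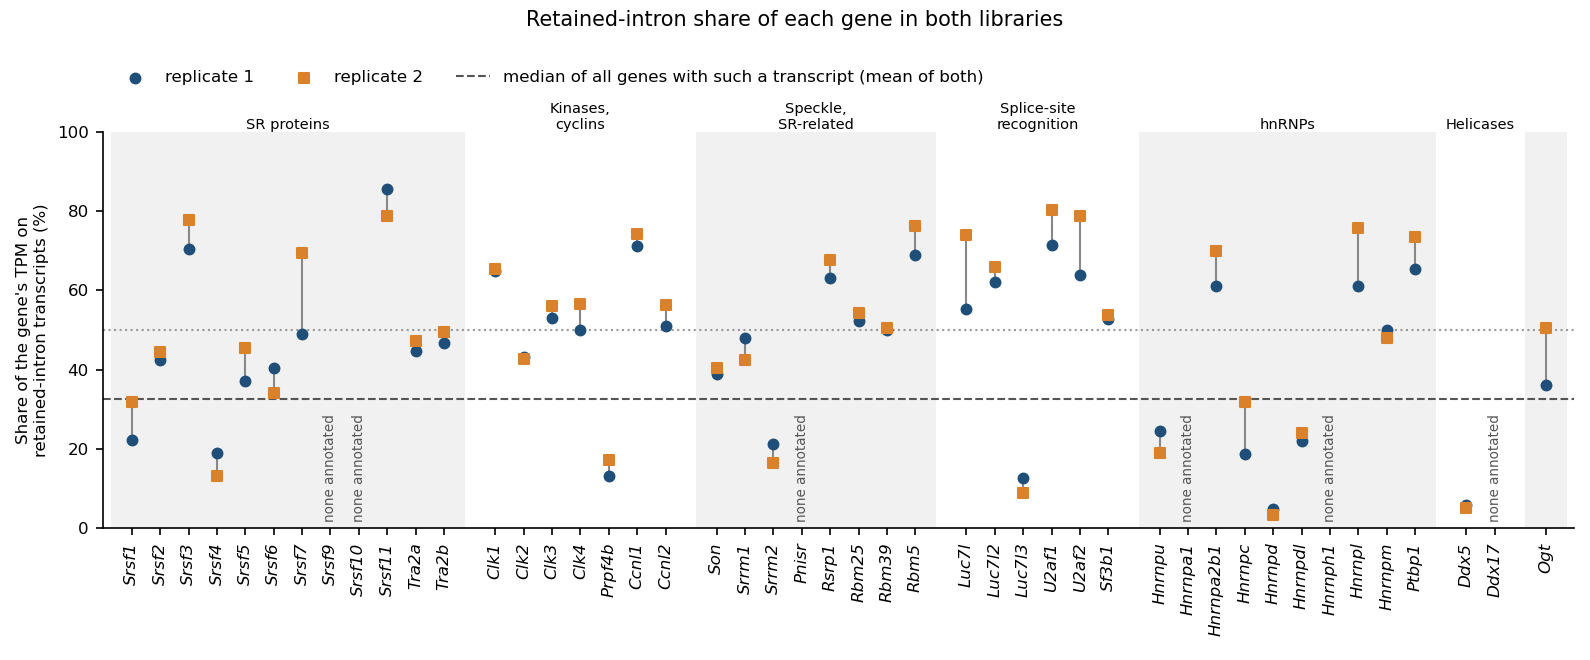
Share of each gene's TPM on retained-intron transcripts in percent, grouped by role, with circles for replicate 1 and squares for replicate 2; the dashed line is the median of all 6517 genes and the dotted line marks 50%. Splice-site recognition genes except Luc7l3 lie above 50%, and Hnrnpd and Ddx5 lie below 6% in both libraries.

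Replicate 2 had the higher retained-intron share in 29 of 40 members, 72.5%, against 52.4% of all genes. The median difference was 2.83 percentage points in the members and 0.465 over all genes. Retained-intron transcripts held 43.6% of the members' summed TPM in replicate 1 and 44.6% in replicate 2, so the total moved little. Mitochondrially encoded genes took 3.19% of all gene counts in replicate 1 and 10.5% in replicate 2, and their part in these differences was not tested.

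Whole retained introns were described by length and sequence. There were 52 in 24 of the members, and their median length was 436 bases, against 630 for the 202 other introns of the same reference transcripts. Over all genes with such introns the medians were 258 and 922 bases, with the longer retained introns in the members. Their GC content had a median of 39.6%, against 51.1% over all genes. All 52 ran from GT to AG, as did 98.5% over all genes. The starts GTAAGT or GTGAGT were found in 38.5% of the members' retained introns and in 25.2% of those of all genes. The wider pattern GTNNG was found in 67.3% of them and in 78.1% over all genes. These patterns were read on the transcribed strand at the intron's first base only. Of the 52 introns 49 lie between coding exons.

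In several members a poison exon lay inside a retained intron. In 9 members 11 retained-intron transcripts contained, inside a longer exon, the whole of an exon that an NMD transcript of the same gene adds. Srsf3-204 keeps introns 3 and 4 and so holds the 456-base added exon of Srsf3-201. Srsf6-204 keeps intron 2 with the 268-base added exon of Srsf6-201, and Srsf7-207 keeps intron 3 with the 460-base added exon of Srsf7-203. Both forms were measured in each of these genes. Srsf3-204 had 25.4 and 19.3 TPM against 8.70 and 4.15 TPM for Srsf3-201. Srsf6-204 had 24.0 and 11.5 TPM against 8.07 and 1.66 TPM for Srsf6-201. Srsf7-207 had 14.5 and 13.6 TPM against 3.08 and 1.54 TPM for Srsf7-203. In both libraries, therefore, the retained-intron form had the higher level of the pair in Srsf3, Srsf6 and Srsf7. No annotated retained-intron transcript of Tra2a or Ccnl1 holds the added exon inside a longer exon. Whether one holds it as an exon with the same ends was not searched. Stops in the added exons of Srsf3, Srsf6, Srsf7, Tra2a, Ccnl1 and Ccnl2 are printed with the stop codon in capitals.
Srsf3-201 stop, added exon chr17:29039454-29039909: cttctcaccaccctcTGAatctgcattagc
Srsf6-201 stop, added exon chr2:162932815-162933082: gcagccttttgccatTAGacgcagggtgat
Srsf7-203 stop, added exon chr17:80204622-80205081: ttgagtcagtcgcctTGAttcagaatgtca
Tra2a-202 stop, added exon chr6:49252803-49253108: agaagattggtcagaTAGaagcacttgaat
Ccnl1-203 stop, added exon chr3:65955130-65955276: ttaccaaagcctgggTGAtgtggagtggta
Ccnl2-202 stop, added exon chr4:155818539-155818664: gcctctgagggtaagTGActaagacttctc
The cyclin paralogs Ccnl1 and Ccnl2 thus both carry an added exon with a stop, 147 and 126 bases long, and so does the SR-like gene Tra2a with 306 bases.

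Transcripts annotated for NMD held a median of 10.9% and 9.35% of TPM (10.1% ± 1.07, SD, n = 2) in the 39 members that have one, against 4.67% and 3.64% in 3195 genes. The second quantification narrowed that gap, with 10.3% and 12.5% in the members against 9.10% and 7.92% over all those genes. Across the members 36 such transcripts in 18 genes had their stop in an added exon, and 21 in 13 genes had it elsewhere and also lacked an exon of the reference. In 17 of those 21 the stop lies downstream of a skipped exon. Another 18 in 15 genes had a stop elsewhere with no exon skipped, and 11 in 6 genes kept the stop of the reference transcript. The 7 members without an annotated NMD transcript were Srsf10, Rsrp1, Hnrnpc, Hnrnph1, Hnrnpm, Ddx17 and Ogt.

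The highest NMD share was in Hnrnpa1, which encodes an hnRNP that silences exons, at 95.5% and 87.3%. It lay on 2 transcripts, Hnrnpa1-203 with 62.2% and 47.0% and Hnrnpa1-204 with 33.3% and 40.3%, and both end at the normal stop codon with a junction in the sequence after it. Of its 31-base words Hnrnpa1 shared 29.9% with other genes, so its transcript values are uncertain. Hnrnpd had 37.1% and 59.3%, also mainly on a transcript with the normal stop, Hnrnpd-208. Prpf4b had 49.1% and 46.4% and Ddx5 had 52.5% and 42.5%. In Ddx5 the transcript Ddx5-208, with 20007 and 14832 counts, was the most abundant NMD transcript of the set.

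Among SR genes the NMD share was highest in Tra2a at 29.1% and 49.4%, on its single NMD transcript Tra2a-202 with the added exon. Srsf4 had 22.6% and 14.1%, Srsf6 had 13.6% and 4.92%, and Srsf3 had 9.14% and 7.51%. The lowest mean shares among members with an NMD transcript were 0.0901% and 0.170% in Srsf5, 0.352% and 1.49% in Srrm1, and 1.42% and 0.940% in Pnisr. In replicate 2 alone Hnrnpa2b1 was as low as 0.328%. Kinase and cyclin genes had the highest role median of the larger groups, 14.8% and 16.7%, with Ccnl1 at 21.7% and 21%.

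Each gene was then placed by the class with the most TPM. In 23 members retained-intron transcripts led in both libraries, in 11 coding transcripts led, in 3 (Prpf4b, Hnrnpa1 and Ddx5) NMD transcripts led and in 2 (Srsf10 and Hnrnph1) processed transcripts led, a class with no assigned reading frame. The leading class differed between the libraries in the other 7, which were Srsf2, Srsf5, Tra2a, Srrm1, Hnrnpu, Hnrnpd and Ogt. No count over all genes stands beside these, so they do not show a trait particular to the members. Coding transcripts led in Son, Srrm2, Pnisr, Luc7l3, Srsf1, Srsf4, Srsf6, Srsf9, Hnrnpc, Hnrnpdl and Ddx17. A coding class does not mean that every intron of the reference transcript is absent. In Pnisr the coding transcript Pnisr-202 holds intron 11 whole and Pnisr-203 holds intron 8 whole. They took 30.6% and 27.1%, and 18.6% and 13.9%, of Pnisr TPM. All of Ddx17's annotated TPM lay on coding transcripts, the only class annotated for it, so that result was fixed by the annotation. Over the 46 genes together coding transcripts held 30.3% of TPM in each library, and 43.7% and 45.5% of counts, since TPM gives short transcripts more weight.

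**Figure D4:**
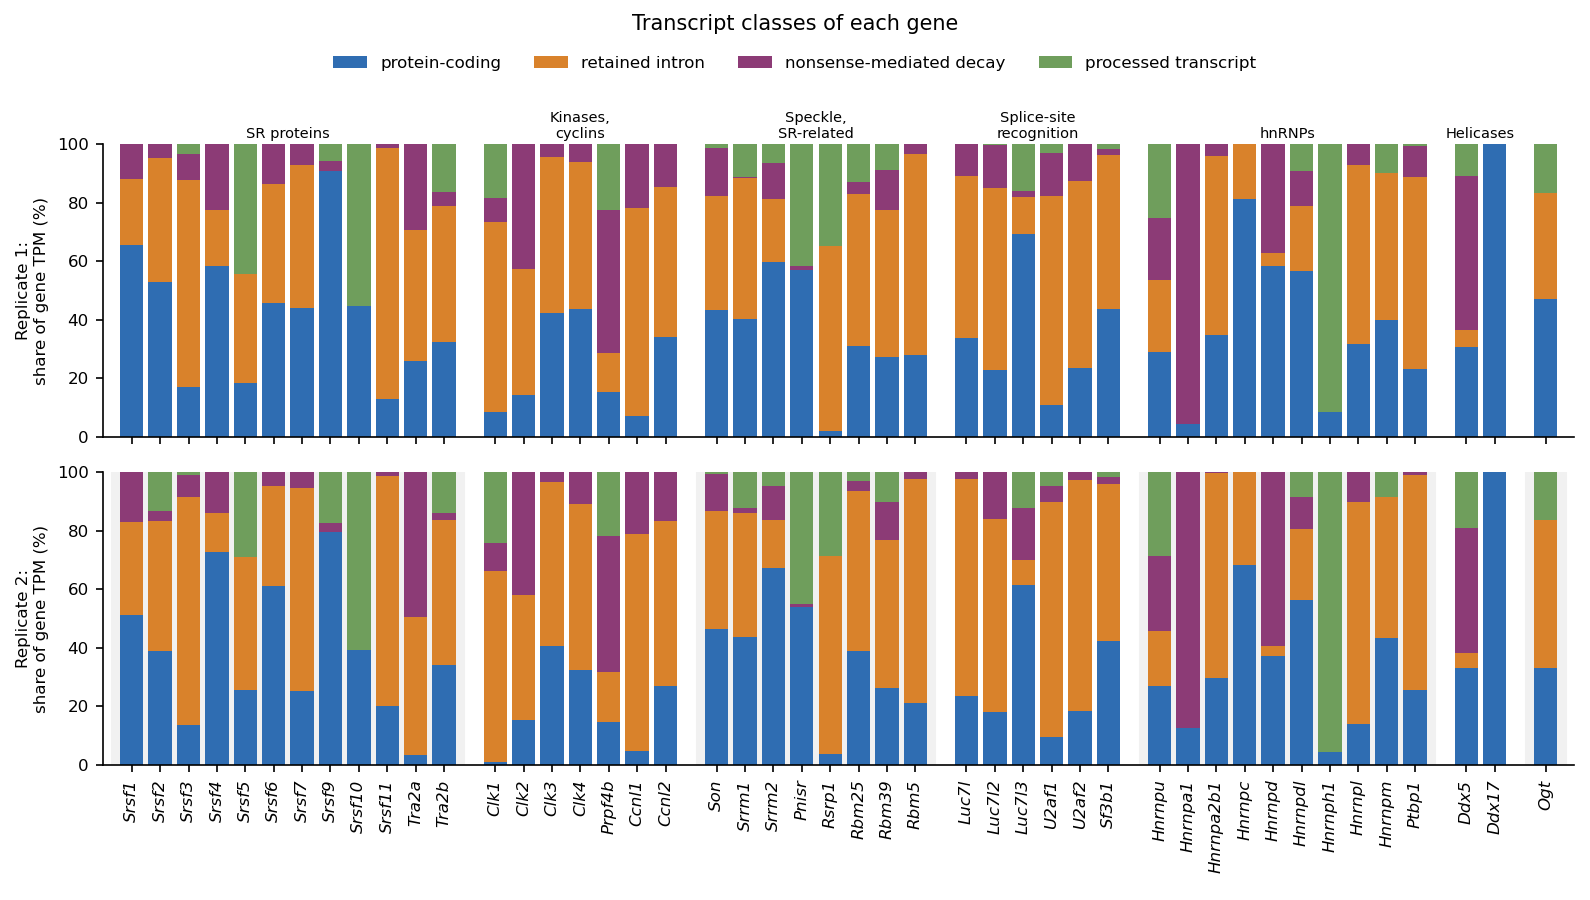
Stacked bars of the share of each gene's TPM by transcript class in percent, with replicate 1 above and replicate 2 below, grouped by role. Orange retained-intron shares are large in most kinase, cyclin and splice-site genes, and Hnrnpa1 is almost all NMD at 95.5% and 87.3%. Ddx17 is coding only because no other class is annotated for it.

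The 2 libraries were compared gene by gene as log2 ratios of counts, replicate 2 over replicate 1, after scaling with the TMM method of edgeR. A ratio compares these libraries and not conditions. No member differed over 2-fold, while 8.02% of the 15557 genes averaging at least 10 scaled counts did. Other genes within the members' range of counts differed over 2-fold in 2.86% of cases. The members' median ratio was -0.13, against 0.00 over all genes. In 30 of 46 members, 65.2%, the count was lower in replicate 2 beyond counting error, against 25.6% of all genes. In 10 it was higher beyond counting error, 21.7%, against 24.5% of all genes. The remaining 6 were Srsf9, Srsf10, Srsf11, Prpf4b, Srrm1 and Luc7l2.

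Ccnl1 had the lowest ratio, -0.92 (95% counting interval -0.96 to -0.88), from 15591 and 7911 counts. With library totals as the scale it was -1.02 and with the second quantification -1.05, both past 2-fold. Its paralog Ccnl2 had -0.67 (-0.74 to -0.60) and Rsrp1 -0.58 (-0.61 to -0.56). The highest ratios were 0.37 (0.25 to 0.50) in Hnrnpd, 0.34 (0.30 to 0.39) in Pnisr, which encodes an SR-rich protein, and 0.28 (0.16 to 0.41) in Clk2. TPM ratios carried a shift of -0.35 over all genes, and on that scale Hnrnpd was at -0.19, Clk2 at -0.04 and Pnisr at 0.02, still above the shift. Kinase and cyclin genes had the lowest role median, -0.29, although Clk2 went the other way and Prpf4b was near 0 at -0.04.

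**Figure D5:**
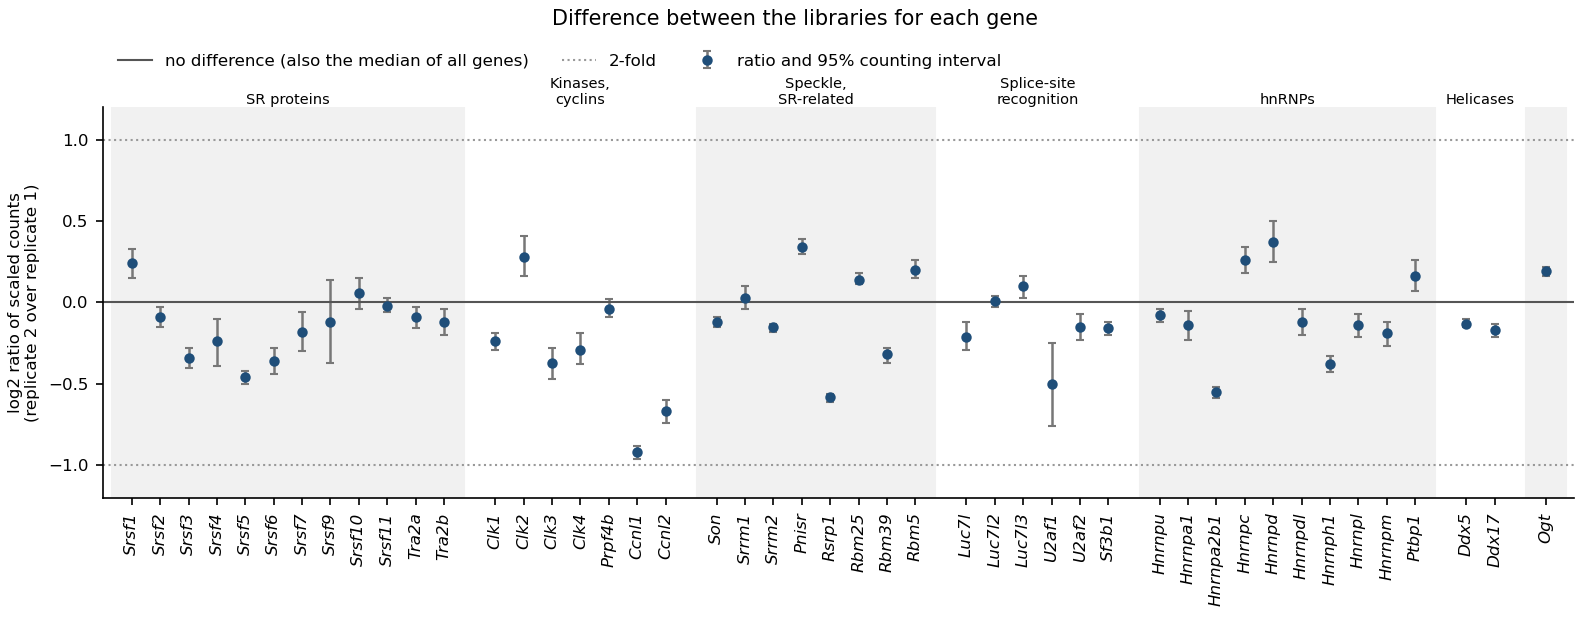
Log2 ratio of TMM-scaled counts, replicate 2 over replicate 1, for each gene with its 95% counting interval; dotted lines mark 2-fold and the solid line marks 0, the median of all genes. Ccnl1 is the lowest at -0.92 and Hnrnpd the highest at 0.37, and no gene crosses the dotted lines.

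Other genes of the splicing pathway were set beside the members. Of 45 core snRNP and spliceosome genes 42 were at 1 TPM or more in both libraries, with medians of 9.03 and 8.17 TPM. Their retained-intron share had a median of 37.2% and 33.3% over the 35 that have such a transcript, 6 of which were at 50% or more in both libraries. It ranged from 0% in Prpf8, the central protein of the spliceosome, to 66.6% and 76.8% in Bud31. Other kinases and phosphatases of SR proteins had medians of 43.4 and 30.6 TPM and shares of 33.2% and 31.3%, with 2 of 7 at 50% or more. Ppp1r10, a regulator of protein phosphatase 1, was highest at 72.7% and 61.0% and Ppm1g lowest at 22.6% and 21.8%.

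The 28 other hnRNPs and regulators had medians of 43.2 and 33.8 TPM and shares of 24.4% and 22.9%, with 3 of 20 at 50% or more. The lowest share among them was in Qk, at 1.05% and 1.92%. Exon junction complex genes had shares of 41.5% and 41.7% with 2 of 6 at 50% or more, from Pnn at 6.71% and 5.61% to Sap18 at 78.8% and 61.1%. Genes of the NMD machinery had 37.6% and 45% with 3 of 6 at 50% or more, from Smg6 at 15.9% and 17.4% to Smg9 at 76.9% and 73.3%. The gene of the enzyme that removes O-GlcNAc, Oga (Mgea5 in the annotation), had 35.3% and 43.3%. Of these lists 3 genes differed over 2-fold between libraries, all in the core list.

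Libraries held 18194818 and 18667509 estimated counts. All 10 macrophage markers checked were at 1 TPM or more in both, while none of the neutrophil, B cell, T cell, erythroid, stromal or mast cell markers was. The highest neutrophil marker had a mean of 1.19 TPM, and of the 2 dendritic markers Zbtb46 alone reached 1 TPM in both. The nuclear RNAs Malat1 and Neat1 summed to 24107 and 32049 TPM. Intervals cover counting error only, since several reads can come from 1 molecule.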

How the data were processed

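The authors deposited 3 tables per library. The first quantification has a gene table and a transcript table in RSEM's column format, with expected counts, TPM and FPKM as the authors computed them, per the file headers. Per the file headers, the second one, in kallisto's column format, lists deposited estimated counts and TPM of each transcript. The deposited tables also give a posterior-mean TPM and a posterior SD of each count. mm10 and GENCODE M21 are named in the notes that accompany the files, with program versions, filters and the strand setting not given in the sources used here. Entries that are not mouse genes took 0.823% and 0.207% of counts and were left out.

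Gene identifiers were matched to the M21 annotation. Shares by class were computed from transcript TPM in genes with a mean of 1 TPM or more. Each gene's reference was a coding transcript of M21, intron sequences came from retained-intron transcripts of M21, and a part of an intron means at least 50 bases. Expected counts were rounded and scaled with edgeR 4.0.16 (TMM, prior count 0.5) in R 4.3.3, with exact binomial 95% intervals. Other steps ran in Python 3.11.15 with scipy 1.17.1, pandas 2.3.3, numpy 2.4.6 and matplotlib 3.10.9. The ratio and share steps were tested on simulated data. With 1 group no test was possible, so values are given per library or as mean ± SD over n = 2. Depth was 18194818 and 18667509 counts, which leaves a median counting interval of ±0.064 on a member's log2 ratio. DESeq2 1.42.0 size factors, library totals, other thresholds and units and the second quantification were tried as alternatives.

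The members and the gene lists were chosen with earlier results of these data known. All 46 members are named by role; full values are given for the 3 highest and 3 lowest in TPM, retained-intron share, NMD share and ratio, and other lists by counts, medians and their highest and lowest share. The highest share of 1 of these lists is not reported here.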

Additional observations from a re-analysis of the deposited data

How the results depend on the processing

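Several summary values depended on the setting. The median level of the members, 90.7 TPM, was 63.5 with the second quantification and 294 after TPM was rescaled to long nuclear-encoded genes, and 80.3 to 101 when either library was left out. The median retained-intron share, 50%, was 47.4% with TPM of the second quantification, where all genes were at 36.5% against 32.5% in the first. The members' median was 51.9% over the 17 members with no overlapping gene and at most 10% shared 31-base words. That set was chosen after seeing the data. Without either library the median over the 40 members was 49.6% to 50.4%. The median NMD share, 10.1%, was 6.73% for expected counts, 11.4% for TPM (8.51% over all genes) and 6.96% for estimated counts of the second quantification, and 9.35% to 10.9% without either library. The median log2 ratio, -0.13, was -0.23 with library totals and -0.50 with TPM ratios, where all genes were at -0.10 and -0.35. The count of members over 2-fold apart, 0, was 1 (Ccnl1) with library totals, 2 (Ccnl1 and Ccnl2) with TPM ratios and 1 (Ccnl1) with the second quantification. Between 32 and 35 of 46 members lay below the median ratio of all genes under the 8 settings run. The 19 members at a retained-intron share of 50% or more became 30 at a limit of 30%, against 45.9% of all genes, and 4 at 70%, against 4.25%; without either library the count was 19 to 21, and with shares of counts 19 against 14.1% of all genes. The second quantification gave 17 members against 23.4% of all genes. The count at 1 TPM or more stayed at 46 under all 6 alternatives run. Ratios need both libraries, so no library could be left out of them. No paired analysis was possible because there is 1 group.

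In limits, 18 members are overlapped by another gene, 15 of them by one on the other strand, and 15 share over 10% of their 31-base words with other genes, which the quantification has to divide reads among. Class shares rest on the annotation and on how each program divides reads among transcripts. Unspliced pre-mRNA and stable retained-intron RNA cannot be told apart.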

Other observations

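Some single transcripts of the members, all read from the first quantification, differed far more between the libraries than their genes did, and these were chosen after their values were seen. Tra2a-201, the reference coding transcript of Tra2a, had 452 counts in replicate 1 and 0 in replicate 2, while the gene had 4124 and 3714; the second quantification lists Tra2a-201 at 0 in both libraries. Srrm2-201 had 2119 and 9325 counts against 27600 and 23859 for the gene, or 4.57% and 27% of Srrm2 TPM, and 4.02% and 13.7% in the second quantification. Luc7l3-204 had 49 and 400 counts, and Hnrnpc-212, a retained-intron transcript, 65 and 251. Srsf7-208 had 131 and 11.6 counts. Hnrnph1, the hnRNP that binds runs of G, held 91.3% and 95.6% of its TPM on processed transcripts, of which 15 are annotated and none has an assigned reading frame.

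Retained introns of Ccnl1 did not all hold the same share of the gene in the 2 libraries. The gene itself had 470 and 204 TPM. Transcripts that keep its intron 9 had 35.5 and 34.4 TPM, or 7.55% and 16.8% of Ccnl1 TPM. Those that keep intron 8 had 71.0 and 22.5 TPM, or 15.1% and 11%. For intron 4 they had 60.2 and 23.8 TPM, or 12.8% and 11.6%, and for intron 5 17.4% and 19.5%. In the second quantification the intron 9 transcript had 6.96% and 15.2%, and the intron 4 transcript 7.35% and 9.19%. Intron 9 is 107 bases long and begins with GTAAGT. The difference between these introns was not tested.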
